A study of Mus musculus with 12 samples.

Results

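The Ugt1a locus encodes the UDP-glucuronosyltransferases of family 1, and 8 of its genes were taken by name from both tables of read counts, singly and as the sum of their counts: Ugt1a1, Ugt1a2, Ugt1a5, Ugt1a6a, Ugt1a6b, Ugt1a7c, Ugt1a9 and Ugt1a10. They were 8 of the 20093 genes that both tables list. RNA-seq was done on whole livers of 12 male C57BL/6N mice in 4 groups of 3: chow WT, chow HuRHep-/-, HFCF WT and HFCF HuRHep-/-. All 12 mice carried the floxed Elavl1 allele (HuR flox/flox), and per the labels they received AAV8-Tbg-Cre (HuRHep-/-) or AAV8-Tbg-null (WT) at 4 to 6 months of age, Tbg being a promoter active in hepatocytes. The study's methods describe a cross with Alb-Cre mice instead, so the source of the Cre differs between labels and methods. HFCF is a diet with 40 kcal% fat, 2% cholesterol and 20 kcal% fructose, fed for 16 weeks, and chow is the normal diet.

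UDP-glucuronosyltransferases are enzymes of the endoplasmic reticulum that join glucuronic acid, taken from UDP-glucuronic acid, to bilirubin, hormones and drugs, and so make them soluble enough to leave in bile or urine. The family 1 genes are made in an unusual way: each has its own promoter and its own exon 1, which codes for the part that binds the substrate, and all are spliced to one common set of exons that codes for the part that binds UDP-glucuronic acid. In the liver the locus is best known for the clearance of bilirubin by Ugt1a1 and for the glucuronidation of phenols such as acetaminophen, the drug the study is about.

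In the GENCODE annotation of GRCm38 the members span chr1:88055388-88220002 on the plus strand, 165 kb. For each, 1 transcript was taken, with 1 exon of its own, of 879 to 954 bases, and 4 exons in common. The common exons have 1311 to 1318 bases together (2316 for Ugt1a7c, whose last exon is longer). The annotated genes Ugt1a6a and Ugt1a6b start further upstream, at 88134809 and 88103252, than their own exons taken here, at 88138378 and 88106862. The junction between exon 1 and exon 2 shows how the transcripts are told apart. The last 30 bases of each exon 1 are printed in lower case and the first 30 bases of exon 2, at chr1:88215044-88215073, in capitals, 5′ to 3′, from the GENCODE transcripts.
Ugt1a10: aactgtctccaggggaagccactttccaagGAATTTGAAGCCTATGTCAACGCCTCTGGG
Ugt1a9: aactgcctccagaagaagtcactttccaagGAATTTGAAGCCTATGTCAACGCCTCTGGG
Ugt1a7c: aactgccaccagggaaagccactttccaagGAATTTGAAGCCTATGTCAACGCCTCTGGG
Ugt1a6b: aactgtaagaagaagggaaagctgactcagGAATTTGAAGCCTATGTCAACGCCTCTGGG
Ugt1a6a: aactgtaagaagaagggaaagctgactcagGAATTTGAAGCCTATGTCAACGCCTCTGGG
Ugt1a5: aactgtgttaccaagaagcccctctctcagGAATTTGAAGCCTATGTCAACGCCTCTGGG
Ugt1a2: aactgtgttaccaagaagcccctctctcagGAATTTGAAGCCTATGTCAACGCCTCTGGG
Ugt1a1: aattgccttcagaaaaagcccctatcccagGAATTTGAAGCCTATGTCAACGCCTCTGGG
Exon 2 begins the same way in all 8 members, and the 8 exon 1 ends take 6 forms, since Ugt1a6a ends like Ugt1a6b and Ugt1a5 like Ugt1a2. Over the whole of exon 1, Ugt1a6a and Ugt1a6b were 94.9% identical, Ugt1a9 and Ugt1a10 86.9%, and Ugt1a5 and Ugt1a2 80.2%. Ugt1a1 was at most 58.2% identical to any other member. Of the words of 31 bases in exon 1, 94.6% recur in another gene for Ugt1a6a and 59.0% for Ugt1a6b, against 20.3% for Ugt1a9, 12.5% for Ugt1a5 and 0.0% for Ugt1a1. The split of reads between Ugt1a6a and Ugt1a6b, and between any members over the common exons, is therefore uncertain. How reads on the common exons were assigned is not given in the sources used here. Ugt1a2 had 0 counts in 4 livers in which Ugt1a1 had 14877 counts or more, so not every read on the common exons was counted for every member.

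**Figure D1:**
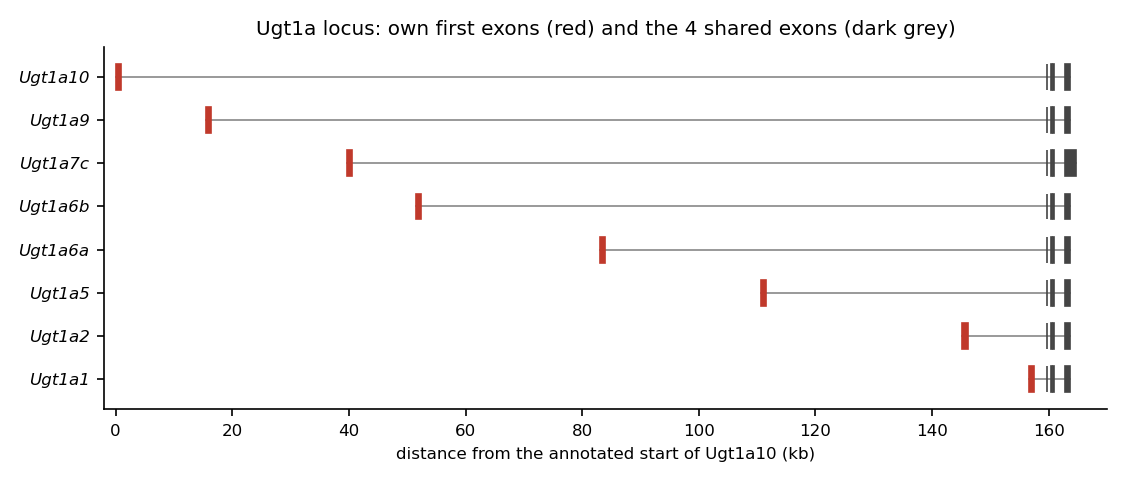
Map of the 8 Ugt1a members along the locus, with the distance in kb from the annotated start of Ugt1a10 on the horizontal axis and 1 row per gene. Red boxes are the members' own exons in the 1 transcript taken for each, and dark grey boxes the 4 common exons, which lie together at the end of the 165 kb.

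Total counts ran from 30071731 to 35949203 per library. Elavl1, the gene targeted in the HuRHep-/- mice, had 938, 876 and 948 counts in the chow WT livers and 1475, 1265 and 1261 in those labelled HuRHep-/-. It had 904, 791 and 849 counts in HFCF WT livers and 1299, 1242 and 1271 in those labelled HuRHep-/-. The transcript was thus higher where the label says that it was deleted, by 0.41 on the log2 scale in chow (adjusted p = 0.0219, limma) and by 0.38 in HFCF (adjusted p = 0.0327, limma). The row counts the whole gene and does not single out the floxed part, so it does not check the deletion. Every direction between genotypes given here rests on the labels. The 6 hepatocyte markers (Alb, Ttr, Apoa1, Serpina1c, Cps1 and Tat) were present in all livers.

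Levels are given in CPM, counts scaled by the library total and by a TMM factor for each library. These factors were computed over the 12 libraries and ran from 0.882 to 1.13, so CPM values can separate groups whose counts per library total overlap. Ugt1a1, the enzyme that conjugates bilirubin, was the most abundant member in all 4 groups. Its level was 771.8 ± 37.1 CPM in chow WT livers, 471.5 ± 26.2 in chow livers labelled HuRHep-/-, 608.2 ± 10.05 in HFCF WT livers and 392.1 ± 45.8 in HFCF livers labelled HuRHep-/- (mean ± SD, n = 3 each, as for all levels here). Per kb of transcript in chow WT livers, Ugt1a1 stood at 347 CPM per kb, followed by Ugt1a6b at 76.4, Ugt1a6a at 66.0, Ugt1a5 at 39.9 and Ugt1a9 at 35.3. Ugt1a5 and Ugt1a9 did not differ beyond their spread there, whereas the values of the other neighbours in this order did not overlap. Ugt1a10 at 1.65 CPM per kb, Ugt1a7c at 1.17 and Ugt1a2 at 0.0692 were far below, and the first 2 of these overlapped.

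The order changed in the livers labelled HuRHep-/-. In chow, Ugt1a9 took rank 2 at 78.1 CPM per kb, overlapping Ugt1a6b at 65.4, and Ugt1a5 stood at 11.5. In HFCF WT livers, by contrast, Ugt1a9 stood at rank 5 with 13.3 CPM per kb, under Ugt1a5 at 30.05 and without overlap. In HFCF livers labelled HuRHep-/-, Ugt1a9 at 32.3 CPM per kb was above Ugt1a5 at 19.7, again without overlap. Ugt1a1 kept rank 1 and Ugt1a2 rank 8 throughout.

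**Figure D2:**
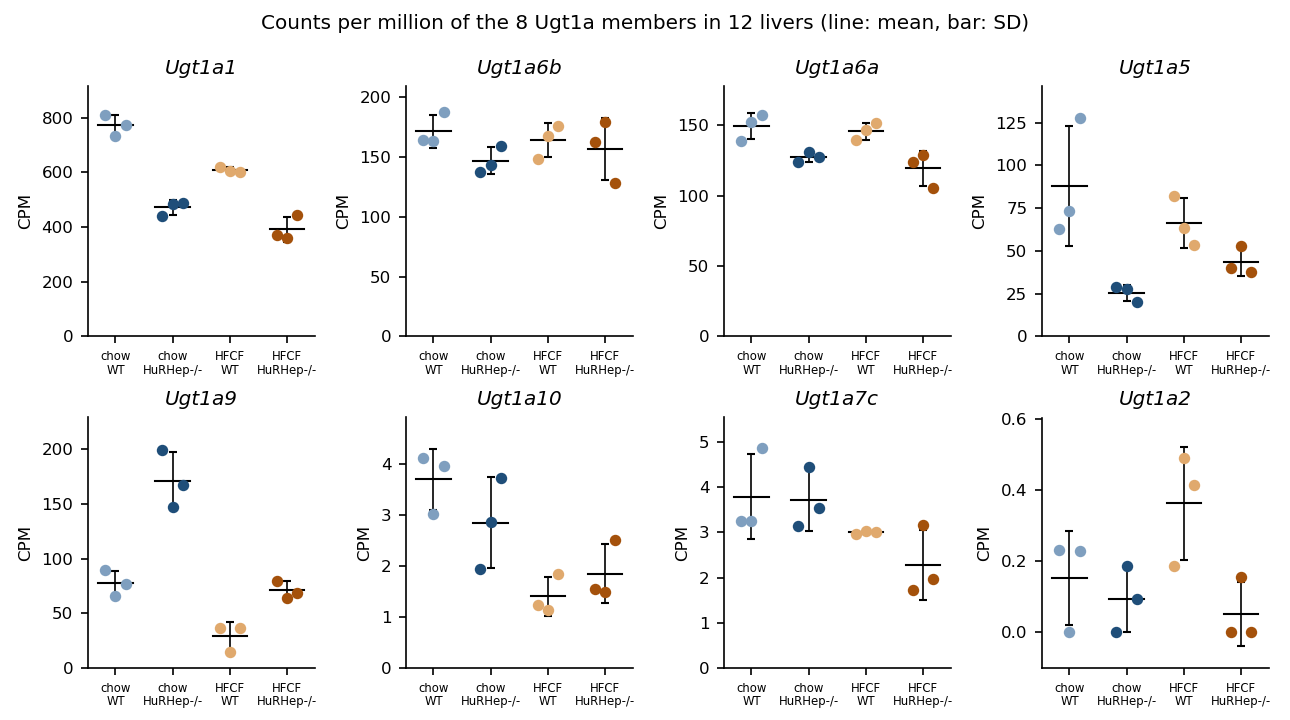
Level of each of the 8 members in CPM (vertical axis, linear, own scale in each panel) in the 12 livers, grouped by diet and genotype. Points are livers, the horizontal line is the mean and the bar the SD of 3 livers. Ugt1a1 and Ugt1a5 lie lower and Ugt1a9 higher in the chow livers labelled HuRHep-/- than in chow WT livers, without overlap.

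The first comparison asked how the genotypes differed on chow, the baseline of the study. Of the 8 members, 7 passed the filter on low counts and were tested, and 3 of them were called: Ugt1a9 rose, and Ugt1a1 and Ugt1a5 fell. To be called, a gene needed a change of 1.5-fold or more in either direction, 10 or more counts summed over each group, and an adjusted p no higher than 0.05. Among all 13526 genes tested on chow, 1.27% were called higher and 0.969% lower. The p-value tests for any change and not for one of 1.5-fold. Tested against a fold change of 1.5 itself, none of the 3 members passed (adjusted p of 0.493 for Ugt1a9, 0.436 for Ugt1a5 and 1.0 for Ugt1a1, limma). Only 6 of the 13526 genes passed that test on chow.

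Ugt1a1 had 24554, 21952 and 23636 counts in the chow WT livers and 15226, 15622 and 15900 in those labelled HuRHep-/-. All 3 WT livers were above all 3 of the others. The level fell by 0.71 on the log2 scale (SE 0.074, adjusted p = 0.00746, limma), which is 0.611 times the WT mean in CPM.

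Ugt1a5 had 1906, 2189 and 3908 counts in the chow WT livers and 989, 888 and 647 in those labelled HuRHep-/-. The groups did not overlap, and WT liver 3 stood apart from the other 2 WT livers. Ugt1a5 fell by 1.73 on the log2 scale (SE 0.26, adjusted p = 0.0172, limma), the largest change of any member on chow.

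Ugt1a9, which conjugates phenols and fatty acids and takes part in the glucuronidation of acetaminophen, went the other way. It had 2713, 1977 and 2347 counts in the chow WT livers and 6859, 4736 and 5439 in those labelled HuRHep-/-. The lowest of the latter was well above the highest WT liver. The difference was 1.15 on the log2 scale (SE 0.14, adjusted p = 0.0104, limma), or 2.21 times the WT mean in CPM.

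Ugt1a6a and Ugt1a6b, whose product is a main acetaminophen glucuronosyltransferase in rodents, differed little. Ugt1a6a had 4221, 4554 and 4808 counts in the chow WT livers and 4276, 4220 and 4142 in those labelled HuRHep-/-. Its difference was -0.22 on the log2 scale (95% interval -0.38 to -0.07, adjusted p = 0.103, limma). For Ugt1a6b the counts were 4993, 4882 and 5735 against 4756, 4640 and 5186, and the difference was -0.22 (95% interval -0.41 to -0.03, adjusted p = 0.166, limma). Neither passed the test. The raw counts overlapped for both genes, whereas the CPM values, which include the TMM factors, did not overlap for either. Added together, which does not depend on how reads were split between them, they stood at 321 ± 21.2 CPM in chow WT livers and 274 ± 12.6 in those labelled HuRHep-/- (exact permutation test, two-sided p = 0.1, the smallest that 3 against 3 allow).

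Ugt1a7c and Ugt1a10, whose human counterparts are known from the gut, were close to the lower end of detection. Ugt1a7c had 99, 97 and 149 counts in the chow WT livers and 108, 144 and 115 in those labelled HuRHep-/-, a difference of -0.01 on the log2 scale (95% interval -0.50 to 0.47). Ugt1a10 had 125, 90 and 121 against 67, 92 and 121, a difference of -0.41 (95% interval -0.99 to 0.17). The groups overlapped for both, and the intervals leave room for changes in either direction. Ugt1a2, with 7, 0 and 7 counts against 0, 6 and 3, was too low to test.

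Summed over the 8 members, the chow WT livers had 38618, 35741 and 40711 counts and those labelled HuRHep-/- had 32281, 30348 and 31553. The sum was 1266 ± 67.9 CPM against 949 ± 19.3, without overlap (exact permutation test, two-sided p = 0.1, the smallest possible). It fell by 0.41 on the log2 scale (SE 0.075, adjusted p = 0.0300, limma), under the fold limit and thus not called. The median difference over the 7 members tested was -0.22, beside 0.00 over all genes. On chow, the hepatocyte and Kupffer cell marker sums did not overlap between genotypes, whereas the cholangiocyte, endothelial, stellate cell, leukocyte and intestinal sums did. The 6 hepatocyte markers together ran from 94130 to 115758 CPM in chow WT livers and from 74803 to 83885 in those labelled HuRHep-/-, with none of the 6 called. Singly, they differed by -0.48 (Alb), -0.35 (Ttr), -0.22 (Apoa1), -0.44 (Serpina1c), -0.06 (Cps1) and 0.42 (Tat) on the log2 scale. The 6 Kupffer cell markers ran from 116 to 145 CPM in WT livers and from 167.6 to 247 in those labelled HuRHep-/-. The part of these markers in the Ugt1a values was not tested. In whole liver, fewer cells of a type and less RNA per cell cannot be told apart. Leaving out chow HuRHep-/- replicate 2 put all 3 members above the limit on the adjusted p (0.0520 for Ugt1a1 and Ugt1a9, 0.0758 for Ugt1a5), with log2 differences of -0.72, 1.25 and -1.80. Without that liver, 8 genes were called in all, in place of 303. Leaving out any other liver kept the 3 calls. The sum no longer passed without WT replicate 1 or 3 (adjusted p of 0.0974 and 0.112, limma) or without HuRHep-/- replicate 1 or 2 (0.104 and 0.136).

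The second comparison was that of the genotypes on HFCF. Ugt1a1 alone was called, lower, and Ugt1a9 narrowly missed the limit on the adjusted p. Among the 14295 genes tested on HFCF, 2.15% were called higher and 1.47% lower.

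Ugt1a1 had 23477, 19752 and 18935 counts in the HFCF WT livers and 14877, 13910 and 16504 in those labelled HuRHep-/-. The groups were again separate. Ugt1a1 fell by 0.66 on the log2 scale (SE 0.092, adjusted p = 0.0189, limma), and its mean CPM was 0.645 times that of WT. The call was lost without WT replicate 1, HuRHep-/- replicate 1 or HuRHep-/- replicate 2 (adjusted p of 0.0654, 0.103 and 0.0837, limma). Without these livers, 39, 28 and 32 genes were called in all, in place of 517. Ugt1a1 did not pass against a fold change of 1.5 itself (adjusted p = 1.0), a test that 11 of all genes passed on HFCF.

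Ugt1a9 had 1377, 481 and 1143 counts in the HFCF WT livers and 3203, 2462 and 2553 in those labelled HuRHep-/-. The groups did not overlap, but WT liver 2 lay far under the other 2 WT livers. The difference was 1.38 on the log2 scale (SE 0.34, 95% interval 0.59 to 2.16, adjusted p = 0.0546, limma). It was past the limit without WT replicate 2 (0.94, adjusted p = 0.0141, limma) or WT replicate 3 (1.599, adjusted p = 0.0451). The same held with limma's voom weights (adjusted p = 0.0480) and when the 12 libraries shared a common estimate of the spread (adjusted p = 0.0124). Ugt1a9 did not pass without WT replicate 1 or any of the HuRHep-/- livers (adjusted p up to 0.178, limma). Nor did it pass under other scaling, filters or pseudocount, or against a fold change of 1.5 itself.

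Ugt1a5 had 3109, 2071 and 1676 counts in the HFCF WT livers and 1600, 2034 and 1401 in those labelled HuRHep-/-. The raw counts overlapped and the CPM values, which include the TMM factors, nearly met at 53.3 to 82.1 against 37.7 to 52.7. The difference was -0.62 on the log2 scale (95% interval -1.05 to -0.18, adjusted p = 0.0859, limma). Ugt1a6a differed by -0.31 (95% interval -0.51 to -0.10, adjusted p = 0.0757) and Ugt1a6b by -0.09 (95% interval -0.40 to 0.21). Added together, they stood at 309.8 ± 20.3 CPM in WT livers and 276 ± 38.5 in those labelled HuRHep-/-, and the groups overlapped (exact permutation test, two-sided p = 0.2). For the low members the intervals were wide: -1.01 to 0.09 around -0.46 for Ugt1a7c, and -0.31 to 1.03 around 0.36 for Ugt1a10. Ugt1a2 had 7, 16 and 13 counts against 0, 6 and 0 and was not tested.

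The sum of the 8 members on HFCF was 39023, 32744 and 32227 counts in WT livers and 31304, 30486 and 29293 in those labelled HuRHep-/-, or 1018 ± 16.1 CPM against 787 ± 5.30. In CPM the groups were far apart relative to their spread (exact permutation test, two-sided p = 0.1, the smallest possible). The sum fell by 0.39 on the log2 scale (SE 0.068, adjusted p = 0.0286, limma), under the fold limit, and it did not pass without WT replicate 1 or any of the HuRHep-/- livers (adjusted p of 0.0819 to 0.133). The median over the 7 members was -0.31, beside 0.00 over all genes. Beside this, the 6 cholangiocyte markers together ran from 38.6 to 87.4 CPM in HFCF WT livers and from 133 to 242 in those labelled HuRHep-/-, with Krt19 and Krt7 called higher among the 5 tested. The hepatocyte markers ran from 64974 to 74946 CPM and from 59432 to 63798, and the leukocyte markers from 5.07 to 9.50 and from 13.7 to 14.5. Their part in the Ugt1a values was not tested.

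**Figure D3:**
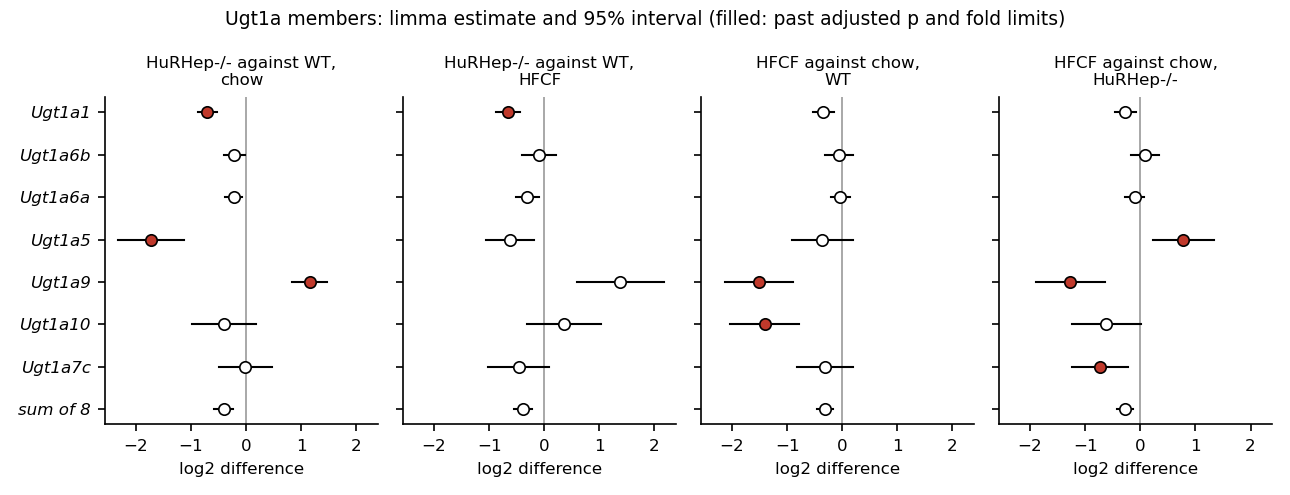
Log2 difference of 7 members and of the sum of the 8, estimated by limma with its 95% interval (horizontal axis), in 4 comparisons of 3 against 3 livers. Filled points passed both the adjusted p and the fold limit. Ugt1a9 lies right of 0 between genotypes and left of 0 between diets, and Ugt1a1 and the sum lie left of 0 in all 4.

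Whether the genotype difference itself depended on diet was tested as an interaction over the 12 libraries. No member was called, and 0% of the 14535 genes tested were called higher and 0% lower by limma, with 2086 genes at an unadjusted p under 0.05 and none called with voom weights. Of the 7 members tested, 1 was at an unadjusted p under 0.05, Ugt1a5. In this fit of the 12 libraries, its genotype difference on HFCF minus that on chow was 1.14 on the log2 scale, which did not pass (95% interval 0.36 to 1.92, adjusted p = 0.213, limma). For Ugt1a1 the difference between the diets was 0.07 (95% interval -0.19 to 0.33), for Ugt1a9 0.25 (95% interval -0.63 to 1.13) and for the sum 0.04 (95% interval -0.16 to 0.25). The interval of Ugt1a1 is narrow and that of Ugt1a9 wide, so a sizeable diet dependence of the latter was not detectable.

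The make-up of the locus does not depend on how libraries are scaled. Ugt1a1 made up 63.6%, 61.4% and 58.1% of the summed counts in the chow WT livers and 47.2%, 51.5% and 50.4% in those labelled HuRHep-/-. Ugt1a9 made up 7.03%, 5.53% and 5.77% in the former and 21.2%, 15.6% and 17.2% in the latter. The mean share of Ugt1a1 fell by 11.3 percentage points and that of Ugt1a9 rose by 11.9, while the share of Ugt1a5 fell from 6.89% to 2.68%. These 3 shares, and those of Ugt1a6a and Ugt1a6b, did not overlap between genotypes (exact permutation test, two-sided p = 0.1 each, the smallest possible, adjusted p = 0.16 over 8 members). The shares of Ugt1a6a and Ugt1a6b rose, from 11.8% to 13.4% and from 13.6% to 15.5%, although their CPM values were lower. Shares of a common sum do not move independently of each other.

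On HFCF, Ugt1a1 made up 60.2%, 60.3% and 58.8% in WT livers and 47.5%, 45.6% and 56.3% in those labelled HuRHep-/-, and Ugt1a9 3.53%, 1.47% and 3.55% against 10.2%, 8.08% and 8.72%. Both shares were separate between genotypes and changed in the same direction as on chow, by -9.92 and 6.16 percentage points (exact permutation test, two-sided p = 0.1, adjusted p = 0.267). The small share of Ugt1a10, 0.138% against 0.234%, was also separate, with the same p-values. The share of Ugt1a5, 6.498% against 5.52%, overlapped. Within a liver, there were 0.0999 ± 0.0102 counts of Ugt1a9 for each count of Ugt1a1 in chow WT livers and 0.365 ± 0.0763 in those labelled HuRHep-/-. On HFCF the same ratio was 0.0478 ± 0.0203 and 0.182 ± 0.0307.

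**Figure D4:**
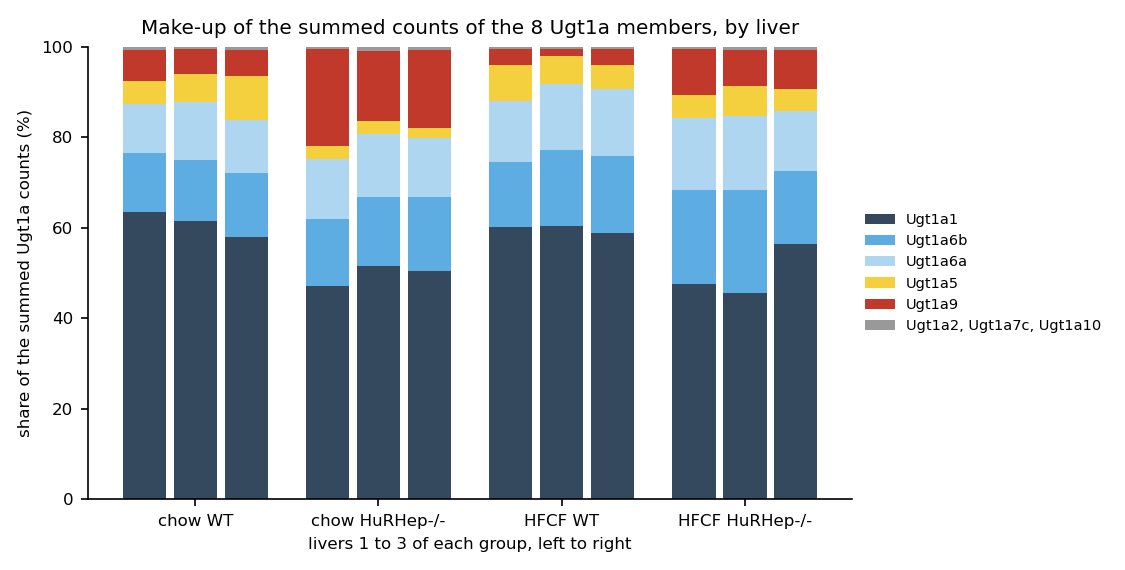
Share of each member in the summed counts of the 8 Ugt1a members (vertical axis, percent), 1 bar per liver. The Ugt1a9 part (red) is 15.6% to 21.2% in the chow livers labelled HuRHep-/- and at most 7.03% in the chow WT livers.

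The diets were compared within each genotype. The diets were deposited in separate tables, so diet and any batch between the tables cannot be told apart. In WT livers, Ugt1a9 and Ugt1a10 were called lower on HFCF than on chow, in a comparison that called 6.14% of 14535 genes higher and 3.24% lower. Ugt1a9 went from 66.1 to 89.3 CPM on chow to 14.7 to 36.4 on HFCF, without overlap, and fell by 1.51 on the log2 scale (SE 0.28, adjusted p = 0.00380, limma). Ugt1a10 went from 3.01 to 4.12 CPM on chow to 1.13 to 1.84 on HFCF and fell by 1.41 (SE 0.28, adjusted p = 0.00544, limma). These 2 genes had the most alike exons 1 after the Ugt1a6 pair, and 40.8% of the words of 31 bases in exon 1 of Ugt1a10 recur in other genes, so part of the Ugt1a10 counts may not be told apart from Ugt1a9. Both calls held without any 1 of the 12 livers, and neither gene passed against a fold change of 1.5 itself (adjusted p of 0.221 for Ugt1a9 and 0.352 for Ugt1a10, limma). Of the 14535 genes, 86 passed that test.

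In livers labelled HuRHep-/-, Ugt1a9 and Ugt1a7c were called lower on HFCF and Ugt1a5 higher, where 14.2% of genes were called higher and 4.9% lower. Ugt1a9 went from 147 to 199 CPM on chow to 63.8 to 79.9 on HFCF and fell by 1.27 on the log2 scale (SE 0.28, adjusted p = 0.00529, limma). Its level in HFCF livers labelled HuRHep-/- (70.8 ± 8.22 CPM) was close to that in chow WT livers (77.4 ± 11.6), a pair that was not tested. Ugt1a5 went from 19.9 to 28.7 CPM on chow to 37.7 to 52.7 on HFCF, a log2 difference of 0.78 (SE 0.25, adjusted p = 0.0293, limma). In WT livers, Ugt1a5 differed by -0.36 and did not pass (adjusted p = 0.316, limma). Ugt1a7c fell by 0.73 (SE 0.23, adjusted p = 0.0279, limma), although its CPM values, 3.13 to 4.46 and 1.72 to 3.16, overlapped. Ugt1a10, called lower in WT livers, differed by -0.61 here and did not pass (adjusted p = 0.108, limma). The Ugt1a5 call was lost without chow HuRHep-/- replicate 3 or HFCF HuRHep-/- replicate 1 or 2 (adjusted p of 0.111, 0.0547 and 0.109, limma), and the Ugt1a7c call without chow HuRHep-/- replicate 2 or 3 or HFCF HuRHep-/- replicate 1 or 3 (0.101, 0.0585, 0.111 and 0.0865). Against a fold change of 1.5 itself none of the 3 called members passed (adjusted p of 0.224 for Ugt1a9 and 1.0 for Ugt1a5 and Ugt1a7c, limma), whereas 364 of all genes did.

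Ugt1a1 differed less between the diets, by -0.34 on the log2 scale in WT livers (SE 0.084, adjusted p = 0.0138, limma) and by -0.27 in those labelled HuRHep-/- (SE 0.084, adjusted p = 0.0250), both under the fold limit. The first no longer passed without chow WT replicate 1 (adjusted p = 0.0565, limma). The second no longer passed without chow HuRHep-/- replicate 2 or 3 or HFCF HuRHep-/- replicate 1 or 2 (0.0740, 0.0788, 0.0943 and 0.101) or under upper-quartile scaling (0.0816). The sum fell by 0.31 (SE 0.066, adjusted p = 0.00661, limma) and by 0.27 (SE 0.066, adjusted p = 0.00821), also under it. The Ugt1a6 genes did not pass in either genotype, with differences from -0.10 to 0.08. The hepatocyte markers were lower on HFCF as a sum (range of the 6 WT livers 94130 to 115758 CPM on chow and 64974 to 74946 on HFCF, 2 of 6 called lower in each genotype). In WT livers, 2 of 6 Kupffer cell markers, 2 of 6 stellate cell markers and 1 of 6 leukocyte markers were called higher on HFCF, and none of the 5 cholangiocyte markers tested. In livers labelled HuRHep-/-, 5 of 5 cholangiocyte markers tested, 6 of 6 stellate cell markers, 4 of 6 leukocyte markers and 2 of 6 Kupffer cell markers were called higher. Of the 6 intestinal markers 2 were tested, of which Fabp2, a fatty acid binding protein, was called higher in both genotypes (log2 differences of 1.77 and 1.87), and the sum of the list went from 56.4 to 83.3 CPM on chow to 212 to 244 on HFCF in WT livers, and from 52.9 to 65.9 to 209 to 234 in those labelled HuRHep-/-. The part of these markers in the Ugt1a values was not tested.

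The promoters are printed for the 3 members called between genotypes, Ugt1a1, Ugt1a5 and Ugt1a9, and for Ugt1a10, whose promoter is set beside that of Ugt1a9. They are the 250 bases before the RefSeq start on the plus strand of GRCm38.p6, 5′ to 3′, with matches to 3 motifs in capitals. The RefSeq table held 7 of the 8 members, and not Ugt1a6b. The motifs, searched on both strands, were GTTAAT of the HNF1 site, bound by the hepatocyte factors HNF1, GCGTG of the xenobiotic response element, bound by the aryl hydrocarbon receptor, and TGACNNNGC of the antioxidant response element, bound by Nfe2l2.
Ugt1a1, chr1:88211709-88211958: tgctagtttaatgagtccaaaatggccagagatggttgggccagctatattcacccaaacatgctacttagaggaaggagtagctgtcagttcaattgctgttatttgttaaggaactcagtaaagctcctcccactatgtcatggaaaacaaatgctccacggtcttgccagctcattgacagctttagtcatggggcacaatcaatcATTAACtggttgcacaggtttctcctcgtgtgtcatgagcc
Ugt1a5, chr1:88165762-88166011: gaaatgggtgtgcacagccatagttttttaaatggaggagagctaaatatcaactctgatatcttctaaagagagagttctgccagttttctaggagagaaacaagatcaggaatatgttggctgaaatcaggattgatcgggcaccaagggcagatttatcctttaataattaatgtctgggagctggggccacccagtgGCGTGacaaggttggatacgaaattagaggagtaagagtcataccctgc
Ugt1a9, chr1:88070529-88070778: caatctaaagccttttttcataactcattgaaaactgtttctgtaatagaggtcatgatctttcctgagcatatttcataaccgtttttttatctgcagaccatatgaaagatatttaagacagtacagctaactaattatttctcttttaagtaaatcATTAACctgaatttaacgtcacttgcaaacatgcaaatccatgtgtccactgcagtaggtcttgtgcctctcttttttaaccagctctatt
Ugt1a10, chr1:88055161-88055410: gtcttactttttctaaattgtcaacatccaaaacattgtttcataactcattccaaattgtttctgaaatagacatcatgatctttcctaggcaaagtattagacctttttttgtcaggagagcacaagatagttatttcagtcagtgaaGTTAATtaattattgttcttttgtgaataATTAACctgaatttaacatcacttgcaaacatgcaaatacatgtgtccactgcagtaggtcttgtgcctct
Of 32851 promoters in the RefSeq table, 6.4% held the HNF1 motif, 28.2% the xenobiotic response element core and 10.2% the antioxidant response element core. The HNF1 motif was found in Ugt1a1, Ugt1a6a and Ugt1a9, 1 time each, and in Ugt1a10, 2 times, and the xenobiotic response element core in Ugt1a5 alone. The Ugt1a6a promoter, chr1:88134559-88134808, lies before the upstream start of that gene and does not adjoin the exon 1 described above. Ugt1a2 and Ugt1a7c held none of the 3. The Ugt1a9 and Ugt1a10 promoters were 68.9% identical, more than any other pair among the 7 members with a promoter in the table.

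The other genes of the pathway were taken from 6 lists, described by counts and medians. Of 13 other UGT genes, 10 were tested on chow and 11 on HFCF. On chow 1 was called lower and none higher (median -0.24), and on HFCF 2 lower and none higher (median -0.42), beside a median of 0.00 over all genes and the shares of 0.969% and 1.47% called lower. The gene called in both diets was Ugt3a2, which uses other sugars than glucuronic acid. Ugt3a2 stood at 371 ± 11.02 CPM in chow WT livers and 236 ± 19.5 in those labelled HuRHep-/-, and at 326 ± 10.9 and 199 ± 12.2 on HFCF, without overlap in either diet. It fell by 0.65 on the log2 scale on chow (adjusted p = 0.00944, limma) and by 0.73 on HFCF (adjusted p = 0.00696). Ugt2b38 was called lower on HFCF, by 1.98 (adjusted p = 0.0428, limma), at a low level of 6.60 ± 2.30 CPM against 1.80 ± 1.083. The most abundant genes of the list, Ugt2b5, Ugt2b36 and Ugt2b1, had differences of -0.16, -0.28 and -0.54 on chow and -0.41, -0.30 and -0.84 on HFCF, none past the test.

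None of the 9 genes for the supply and use of UDP-glucuronic acid was called in either diet (medians 0.15 and 0.00). Of all genes, 1.27% were called higher and 0.969% lower on chow, and 2.15% and 1.47% on HFCF, so 0 of 9 is near the share over all genes. Its most abundant genes, Rgn and Gulo of ascorbate synthesis and Akr1a1, which reduces glucuronate, differed by -0.18, 0.20 and -0.02 on chow and by -0.39, 0.00 and -0.05 on HFCF.

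Of the 11 genes for heme breakdown and bilirubin transport, none was called on chow (median -0.02), and 1 was called higher and 1 lower on HFCF (median -0.17), where 2.15% of all genes were called higher and 1.47% lower. Slco1b2, an uptake carrier for bilirubin and its conjugates, stood at 774 ± 15.1 CPM in chow WT livers and 759 ± 56.7 in those labelled HuRHep-/-, and at 710 ± 69.8 and 477 ± 30.02 on HFCF. It fell by 0.59 on the log2 scale on HFCF (adjusted p = 0.0234, limma), with an interaction of -0.54 that did not pass (adjusted p = 0.138). Slco1a4, another uptake carrier, rose by 1.05 on HFCF (adjusted p = 0.0440, limma), from 20.1 ± 7.12 to 40.8 ± 5.65 CPM. Abcc2 and Abcc3, which export conjugated bilirubin to bile and to blood, differed by 0.17 and -0.25 on chow and by -0.17 and -0.21 on HFCF, and Slco1a1 by -0.57 and -2.65, none past the test.

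Of the 9 genes for the other routes of acetaminophen, sulfation and oxidation, none was called on chow (median -0.06) and 1 on HFCF, lower (median -0.34), beside 1.47% of all genes. Cyp2e1, which oxidizes acetaminophen to its toxic metabolite, fell by 0.76 on HFCF (adjusted p = 0.0464, limma), from 8056 ± 602 to 4861 ± 906 CPM, and differed by -0.30 on chow (adjusted p = 0.274). Cyp3a11, Cyp1a2 and Sult1a1, a sulfotransferase of phenols, differed by -0.29, -0.02 and -0.06 on chow and by -0.37, -0.35 and 0.22 on HFCF, none past the test.

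None of the 12 transcription factors known to act on UGT1A genes was called in either diet (medians -0.01 and -0.11). This is near the shares over all genes, 1.27% higher and 0.969% lower on chow, and 2.15% and 1.47% on HFCF. The most abundant, Hnf4a, Rxra and Nr1i3 (the receptor CAR), differed by -0.06, 0.25 and -0.28 on chow and by -0.04, 0.01 and -0.62 on HFCF. Of 12 genes taken as sentinel targets of those factors, 1 was called lower on chow (median -0.07), beside 0.969% of all genes, and none on HFCF (median 0.11). Vnn1, a target of PPARα, fell by 1.14 on chow (adjusted p = 0.00708, limma), from 50.7 ± 5.53 to 23.0 ± 2.50 CPM, and differed by -0.93 on HFCF (adjusted p = 0.0541). Cyp4a10, also a PPARα target, differed by -0.79 and -1.002 (adjusted p of 0.0793 and 0.0706, limma), and Cyp4a14, another of its targets, by 0.41 and 0.88 (adjusted p of 0.804 and 0.320). The mean CPM of Cyp4a14 on chow went the other way, from 328 ± 249 in WT livers, the lowest at 41.2, to 280 ± 48.0.

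**Figure D5:**
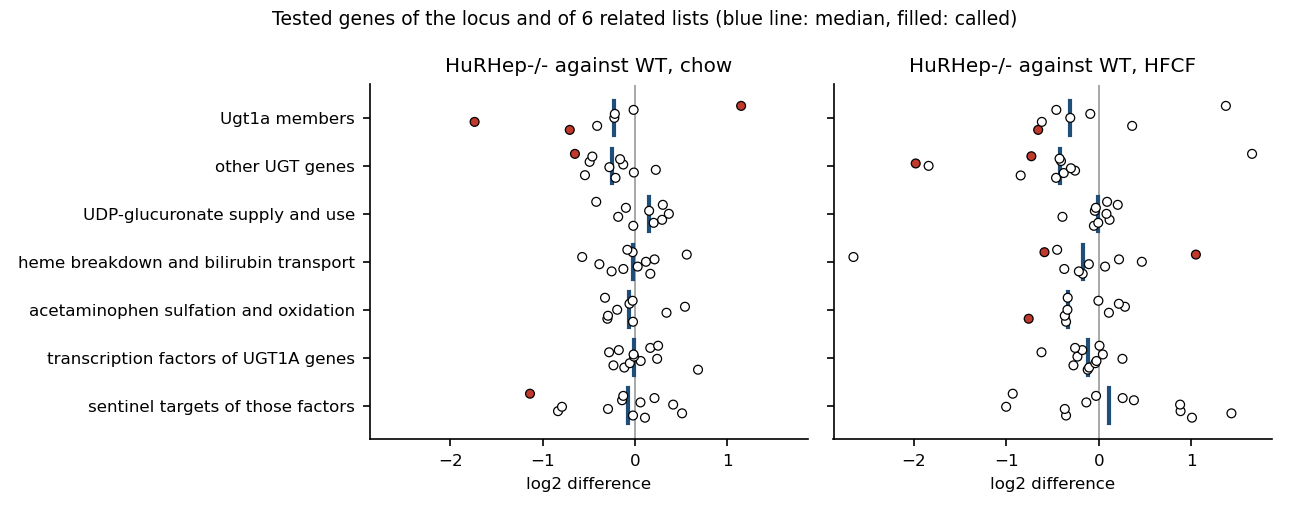
Log2 difference between livers labelled HuRHep-/- and WT livers (horizontal axis) of each tested gene of the locus and of 6 related lists, on chow (left) and HFCF (right). Each point is a gene, filled where called, and the blue line is the list's median. On chow, the members hold 3 of the 5 filled points, on both sides of 0.

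Genes beside the locus were also measured. Within 100 kb, 3 further genes were tested: Usp40, a deubiquitinase, Hjurp, a chaperone of centromeric histone, and Mroh2a. On chow they differed by 0.19, -0.02 and -0.38 on the log2 scale (adjusted p of 0.232, 0.901 and 0.154, limma), and on HFCF by -0.19, -0.23 and -0.44 (adjusted p of 0.263, 0.239 and 0.121). None was called in any comparison.

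The genes whose log2 CPM followed the members most closely over the 12 libraries were found by Pearson's r, given as a description over livers that share 4 groups and 2 tables. For Ugt1a1 they were Gpbp1l1 (r = 0.972), Slc12a2 (0.965) and Rundc3a (0.964). For Ugt1a9 they were Sstr2 (0.958), Asah1 (0.950) and Aprt (0.938), and for Ugt1a5 Cpn1 (0.933), Rnf167 (0.898) and Emc9 (0.888). The summed counts were followed most closely by Ppp1cb (0.978), Atp2c1 (0.977) and Kpna1 (0.973). Among the members themselves, Ugt1a1 and Ugt1a6a had an r of 0.741, Ugt1a1 and Ugt1a5 0.651, Ugt1a9 and Ugt1a10 0.610, and Ugt1a9 and Ugt1a5 -0.589.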

How the data were processed

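Per the labels, liver RNA went into NEBNext stranded libraries. Per the study's methods, the authors aligned and counted the reads in CLC Genomics Workbench against refseq_GRCm38.p6, using strand. The deposited values are raw read counts per gene, in 1 table per diet, whole numbers written as text and for that reason not recorded under counts but under other. From the deposited counts, log2 CPM was computed with TMM factors and a pseudocount of 0.5. A gene was tested where 3 or more libraries reached the level of 10 counts in a library of median size and its total was 15 or more. The fit was limma 3.58.1 in R 4.3.3 with a variance trend, on 6 libraries for each genotype comparison and on 12 otherwise, adjusted by Benjamini-Hochberg over all genes. The limit of 10 counts over each group stands in for the RPKM limit of the study. In the fit of the sum, 1 row replaced the members. Scripts were tested on simulated data. Library totals were similar and each group had 3 livers, and what sets the precision was not tested. Nothing states how livers were spread over litters or days.

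Members and lists were chosen with earlier results of these data known. Named were the members, the called genes of each list and its 3 most abundant others, tested genes within 100 kb, and the 3 closest by r. Exons came from GENCODE M21 and promoters from RefSeq. Alternatives were other scaling, filters, pseudocount, voom weights, a replicate block, leaving out each liver, and a test against the fold limit.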

Additional observations from a re-analysis of the deposited data

Results flagged for a closer look

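One value outside the members stood above its control level. Ugt1a8, a further row of the locus that the chow table lists and that was not among the 8 members, had 34, 7 and 0 counts in the chow livers labelled HuRHep-/- and 0, 0 and 6 in the chow WT livers. The highest value belonged to 1 liver, the groups overlapped, and the row was too low to be tested.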

How the results depend on the processing

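Scaling, filters and pseudocount moved no count of called members by more than 1.5 times. A test against a fold change of 1.5 itself called 0 members in each of the 4 comparisons. Of all genes, it called 6 and 11 between genotypes on chow and HFCF, and 86 and 364 between diets in WT and HuRHep-/- livers. On HFCF, 2 members were called between genotypes, Ugt1a9 being the second, under voom weights, under the replicate block and when all 12 libraries shared the fit. Leaving out 1 liver gave 0 to 3 called members between genotypes on chow, 0 to 2 on HFCF, 2 in every case between diets in WT livers and 1 to 4 in those labelled HuRHep-/-. Over all genes, it gave 8 to 320 calls between genotypes on chow and 28 to 850 on HFCF. For the sum, it gave -0.45 to -0.37 on chow and -0.40 to -0.37 on HFCF. With the replicate block the chow sum stayed at -0.41 with an adjusted p of 0.0541 (limma). Livers with the same number were not shown to be pairs: the correlations of their deviations were -0.028, 0.112 and -0.016 on chow and 0.10, 0.21 and 0.090 on HFCF, and the block called 226 genes in place of 303 on chow and 764 in place of 517 on HFCF. Signs turned without 1 liver for members that were not called in that comparison. Between genotypes, Ugt1a7c ran from -0.154 to 0.177 on chow and Ugt1a6b from -0.195 to 0.050 on HFCF. Between diets in WT livers, Ugt1a6b ran from -0.119 to 0.0060 and Ugt1a6a from -0.089 to 0.00013, and Ugt1a6a was 0.012 under upper-quartile scaling. Between diets in livers labelled HuRHep-/-, Ugt1a6b ran from -0.025 to 0.218. In the interaction, Ugt1a9 ran from -0.187 to 0.467, Ugt1a6a from -0.122 to 0.024 and Ugt1a1 from -0.024 to 0.127. The causes were not tested. Summing every Ugt1a row added only Ugt1a8 on chow, with at most 34 counts in a liver, and no row on HFCF. This setting could not turn the direction of the sum or of the shares, so it is no check on them. Counts were lowest for Ugt1a2, Ugt1a7c and Ugt1a10, and the split of the reads that members share is uncertain. What limits the estimates was not tested.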

Other observations

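Related genes also differed between the diets. Cyp1a2, a target of the aryl hydrocarbon receptor, fell by 1.57 on the log2 scale in WT livers (adjusted p = 0.00101, limma) and by 1.88 in those labelled HuRHep-/- (adjusted p = 0.000233), and Cyp3a11 fell by 1.18 and 1.23 (adjusted p of 0.0112 and 0.00537). Cyp1a1, also a target of the aryl hydrocarbon receptor, fell by 1.35 in WT livers (adjusted p = 0.0102, limma), and its value of -0.43 in those labelled HuRHep-/- did not pass (adjusted p = 0.295, limma). Tiparp, another target of that receptor, differed by -0.32 and -0.20 and did not pass. Of the 12 listed targets of these receptors and of Nfe2l2, 3 were called higher and 5 lower in WT livers, and 3 and 3 in those labelled HuRHep-/-, beside 6.14% and 3.24%, and 14.2% and 4.9%, of all genes. Of the targets of Nfe2l2, Srxn1 rose by 1.06 and 1.13 (adjusted p of 0.00335 and 0.00132, limma) and Nqo1 by 0.68 and 1.22 (adjusted p of 0.0436 and 0.00174, limma), and Gclc differed by 0.00 and -0.17 and did not pass. Vnn1, a target of PPARα, rose by 1.17 and 1.39 (adjusted p of 0.00226 and 0.000481, limma). The other PPARα targets of the list did not pass: Cyp4a10 differed by 0.11 and -0.08 and Cyp4a14 by -0.61 and -0.12. Of the other UGT genes, 1 of 11 was called lower in WT livers and 4 of 11 in those labelled HuRHep-/-, beside 3.24% and 4.9% of all genes, among them Ugt2b5 in both, by -0.72 and -0.94 (adjusted p of 0.00160 and 0.000234, limma). Diet and table cannot be told apart in these values.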
